A study of Mus musculus with 8 samples.

Results

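Immediate early genes are transcribed within minutes of strong synaptic input, calcium entry or growth factor signalling, without new protein synthesis. Most encode transcription factors that switch on a later set of genes, and a few, such as Arc, encode proteins that act at the synapse. In neurons their mRNA levels are widely read as a trace of recent activity, and calcium reaches them through kinases acting on CREB, serum response factor with its ternary complex partners, and MEF2.

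10 activity-dependent immediate early genes were followed in the ventral pallidum (VP): Fos, Fosb, Fosl2, Jun, Junb, Egr1, Egr3, Arc, Npas4 and Nr4a1. They were picked by symbol from a table of 14353 genes, and each of the 10 had 1 row. The mice were vGluT2-Cre x RiboTag crosses, in which Cre under control of the vGluT2 gene Slc17a6 switches on a hemagglutinin tag on the ribosomal protein of Rpl22. TRAP is the mRNA that an antibody to the tag collected with the ribosomes of those cells, and INPUT, by the labels, is mRNA of the VP lysate with all its neurons and glia, whereas the methods speak of an unbound fraction where they describe sequencing. There were 4 pools, each with 1 library per fraction (n = 4 libraries per fraction), and values over the libraries of a fraction are given below in the order of VP1.6, then VP2.2, then VP2.6, then VP2.11. VP1.6 held tissue of 3 male and 4 female mice aged 9 to 12 weeks. Aged 10 to 16 weeks were VP2.2 with 4 male and 6 female mice, VP2.6 with 4 and 7, and VP2.11 with 4 and 6. These pools held 38 mice in all. The study's methods count more samples and mice than the labels, and the rest was not analysed here. Mice of both fractions were homozygous for VGluT2-Cre and heterozygous for the tagged Rpl22 and had no treatment, so no group was stimulated and the comparison is one of fractions, not of activity states. Cre follows any past or present activity of the vGluT2 gene, which limits TRAP as a picture of VP glutamatergic (VP Glu) neurons alone.

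The table gives log2 CPM, the log2 of the reads of a gene per M reads of the library after TMM scaling. Within VP2.2 and VP2.6 the difference between the fractions of a low gene (under 6 CPM in both) mostly matched a ratio of whole reads, and 39.1% and 50.8% of low genes shared their difference with another gene, but under 1% shared their value in a single library. The deposited values of these pools thus carry a shift per gene that both libraries of a pool share, so the difference within a pool is that of the reads, while the CPM of a single library, and the SD and pool means over them, are those of the shifted values. Taking the shifts to balance over genes, the ratios put the effective size of the VP2.2 libraries at about 12.0 M reads (TRAP) and 36.3 M reads (INPUT), and of the VP2.6 libraries at 12.4 M and 24.7 M, while the depth of VP1.6 and VP2.11 is unknown, since both VP2.11 libraries and the INPUT of VP1.6 were rounded. The labelled cells were checked first by their own markers. Slc17a6, the vesicular glutamate transporter gene whose control elements drive the Cre, was higher in TRAP by 2.55 ± 0.25 on the log2 scale (limma, SE, adjusted p = 8.83e-05), in 4 of 4 pools. Slc17a7, a second vesicular glutamate transporter, was higher by 1.45 ± 0.19 (limma adjusted p = 0.000288).

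Fos, Jun and Nr4a1 differed between the fractions, and the other members that were tested did not pass the threshold. Fos was 2.89 times higher in TRAP and Jun 1.45 times, while Nr4a1 was 1.54 times lower. These were 2 members higher and 1 lower out of 9 tested, at an adjusted p under 0.05 (limma on log2 CPM over all genes, Benjamini-Hochberg). Among all 14249 genes tested 47.9% were called in that fit, 23.2% higher and 24.8% lower, so the members' share is not above that of the whole table. With the pool as a block, Fos alone passed, against 32.2% of all genes, 15.4% higher and 16.8% lower. Jun then had an adjusted p of 0.156 and Nr4a1 of 0.0505 in limma. The median log2 difference of the 9 members was 0.15, beside -0.05 for all genes tested. In bulk libraries, fewer cells of a type and less RNA per cell cannot be told apart.

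**Figure D1:**
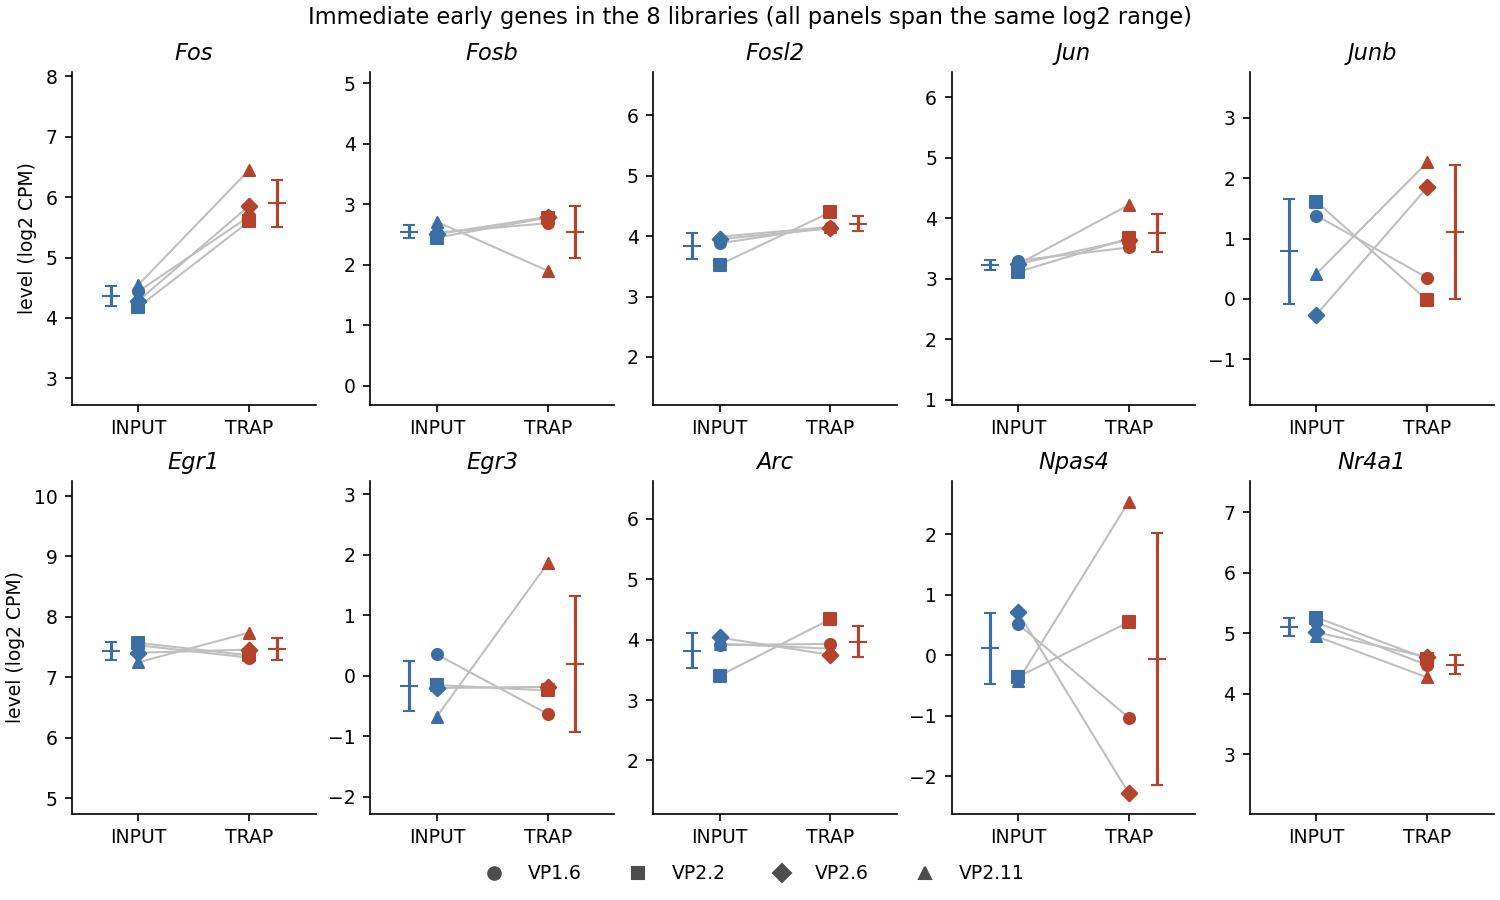
Level in log2 CPM (vertical axis) of each member in INPUT (blue) and TRAP (red), with a marker per pool, a grey line joining the fractions of a pool, and bars at the sides for the mean ± SD of 4 libraries. Fos lines all climb and Nr4a1 lines all descend, whereas the lines of Junb and Npas4 cross.

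Upstream sequence is shown for Fos, and for Nr4a1 with its close relative Nr4a2, because these genes moved in different directions between the fractions. Each run comes from RefSeq on GRCm38.p6, reads 5′ to 3′ on the gene's strand and ends at the last base before an annotated transcription start. For Nr4a1, which has 4 transcripts, this start lies inside the span of the gene (chr15:101254269-101274795). Capitals mark TGACG or its reverse complement CGTCA, the half-site of the cAMP response element (CRE) that CREB binds.
Fos, chr12:85473741-85473889, plus strand: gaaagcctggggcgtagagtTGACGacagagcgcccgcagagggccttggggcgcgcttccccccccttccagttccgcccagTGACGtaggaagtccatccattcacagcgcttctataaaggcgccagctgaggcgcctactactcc
Nr4a1, chr15:101266596-101266845, plus strand: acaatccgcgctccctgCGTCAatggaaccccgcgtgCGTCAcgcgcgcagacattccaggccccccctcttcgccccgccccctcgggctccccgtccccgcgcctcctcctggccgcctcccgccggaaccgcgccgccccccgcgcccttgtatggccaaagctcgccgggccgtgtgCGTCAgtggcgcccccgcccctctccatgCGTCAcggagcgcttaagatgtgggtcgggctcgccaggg
Nr4a2, chr2:57124004-57124223, minus strand: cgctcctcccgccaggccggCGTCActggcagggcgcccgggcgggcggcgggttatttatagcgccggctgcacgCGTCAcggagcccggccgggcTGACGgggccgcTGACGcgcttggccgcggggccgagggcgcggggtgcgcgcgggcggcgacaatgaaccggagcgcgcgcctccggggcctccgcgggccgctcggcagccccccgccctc
Fos held half-sites starting 129 and 66 bases before the start. Nr4a1 held 4, at 233, 213, 69 and 40 bases, and Nr4a2 held 4, at 200, 144, 123 and 111 bases. Of the 7 members with an entry (Fos, Fosb, Fosl2, Jun, Junb, Npas4 and Nr4a1), 5 held at least 1 half-site in the 250 bases upstream, counting both strands and merging half-sites that overlap, and 3 held 2 or more. Among 10451 promoters of genes in the expression table, 27.2% held a half-site and 5.19% held 2 or more. The whole palindrome TGACGTCA, which contains both half-sites, was in none of the 7 windows and in 2.9% of the 10451. A match in these letters is a description of the window and says nothing about binding in VP tissue.

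Fos encodes the founding Fos subunit of AP-1, a dimer of a Fos and a Jun protein, and lies at chr12:85473890-85477273 (GRCm38). In TRAP it stood at 51.3, 48.4, 58.0 and 87.4 CPM, and in INPUT at 21.7, 18.1, 19.5 and 23.4 CPM. The lowest TRAP library was above the highest INPUT library, with VP2.11 the highest library of both fractions. The mean was 61.3 ± 17.9 CPM in TRAP and 20.7 ± 2.3 CPM in INPUT (SD, n = 4). Within pools the log2 difference was 1.24, 1.42, 1.57 and 1.90, and the fitted difference was 1.53 ± 0.19 on the log2 scale (SE, limma adjusted p = 0.000236). With the pool as a block the SE was 0.23 and the limma adjusted p was 0.000273. Without VP2.11, the pool with the highest Fos, the difference was 1.41 (limma adjusted p = 0.000678). An exact two-sided permutation test over the 8 libraries gave p = 0.0286, the smallest that 4 against 4 can give. It ignored the pairing by pool. Any gene whose fractions do not overlap gets this value, and 23.3% of all genes tested lay wholly above INPUT and 24.4% wholly below.

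The other Fos proteins did not share the size of the Fos difference. Fosb, known for the stable variant that builds up with repeated stimulation, was at 6.44, 6.86, 6.92 and 3.73 CPM in TRAP, and at 5.78, 5.46, 5.68 and 6.54 CPM in INPUT. Its TRAP values lay above INPUT in 3 pools and below it in VP2.11, and the fractions overlapped. The fitted log2 difference was -0.01 (95% interval -0.53 to 0.51, limma adjusted p = 0.977). Fosl2, which encodes the Fos protein Fra-2, was at 17.8, 21.02, 17.5 and 17.8 CPM in TRAP and at 14.7, 11.5, 15.4 and 15.9 CPM in INPUT. The fractions did not overlap, and all 4 pools had more in TRAP, yet the difference of 0.37 on the log2 scale missed the threshold (95% interval 0.02 to 0.72, limma adjusted p = 0.074, or 0.296 with the block). Without VP2.2, the pool of its highest TRAP and lowest INPUT library, the difference was 0.20. With the trend in exon length taken out it was -0.0044, and with equal library medians it was called at 0.40 (limma adjusted p = 0.0443). Set against its relatives within each library, Fos exceeded Fosb by 3.36 on the log2 CPM scale in TRAP (2.82 to 4.55) and by 1.82 in INPUT (1.73 to 1.91). It exceeded Fosl2 by 1.69 in TRAP (1.20 to 2.30) and by 0.53 in INPUT (0.34 to 0.65).

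The Jun genes encode the partners of Fos in AP-1. Jun, a single-exon gene at chr4:95049034-95052222, was at 11.4, 12.7, 12.5 and 18.6 CPM in TRAP. In INPUT it was at 9.85, 8.65, 9.48 and 9.45 CPM. All TRAP values were above all INPUT values, and VP2.11 stood apart at the top of TRAP. Jun rose by 0.54 ± 0.18 on the log2 scale without the block (SE, limma adjusted p = 0.0337), with within-pool differences from 0.22 to 0.98. Leaving out VP1.6, VP2.2 or VP2.6 also left Jun short of the threshold, with limma adjusted p of 0.0589, 0.0807 and 0.0952. Junb was near the low end of the table, at 1.28, 0.99, 3.596 and 4.79 CPM in TRAP and at 2.603, 3.05, 0.84 and 1.34 CPM in INPUT. Pools VP1.6 and VP2.2 had more Junb in INPUT, VP2.6 and VP2.11 more in TRAP. The fitted log2 difference was 0.32, with a 95% interval from -0.98 to 1.63 (limma adjusted p = 0.676). Jund, the third Jun gene and the least dependent on stimulation, went the other way, from 23.5 ± 7.2 CPM in INPUT to 8.31 ± 3.26 CPM in TRAP (SD, n = 4). It fell by 1.53 on the log2 scale (limma adjusted p = 0.00206, or 0.00364 with the block), in 4 of 4 pools. Within a library, Jun thus exceeded Jund by 0.78 on the log2 CPM scale in TRAP (-0.04 to 1.21) and was 1.28 below it in INPUT, at log2 ratios from -1.83 to -0.87.

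Egr1, a zinc finger factor induced through serum response factor, was the most abundant member in both fractions. It was at 160.5, 164.8, 176.1 and 213.8 CPM in TRAP, and at 184.8, 190.1, 169.8 and 152.2 CPM in INPUT. The fractions overlapped, with INPUT the higher in VP1.6 and VP2.2 and TRAP the higher in VP2.6 and VP2.11. The fitted log2 difference was 0.03 with a 95% interval from -0.27 to 0.33 (limma adjusted p = 0.855), so a change of Fos size lies outside the interval. Egr3 was over 1 CPM in 2 of 8 libraries and did not enter the main fit, and without the filter on low values its log2 difference was 0.37 ± 0.57 (SE, limma adjusted p = 0.613). Its values were 0.65, 0.84, 0.88 and 3.63 CPM in TRAP and 1.28, 0.90, 0.87 and 0.63 CPM in INPUT. Only TRAP VP2.11 and INPUT VP1.6 were above 1 CPM. The smallest whole reads that give the Egr3 ratio were 18 in TRAP and 59 in INPUT of VP2.2, and 12 and 24 in VP2.6.

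Nr4a1 (also called Nur77), an orphan nuclear receptor at chr15:101254269-101274795, was at 22.2, 23.9, 24.4 and 19.3 CPM in TRAP. In INPUT it was at 36.3, 38.3, 32.4 and 30.9 CPM. All 4 TRAP values were below all INPUT values, and the lowest TRAP library was VP2.11. The mean was 22.4 ± 2.3 CPM in TRAP and 34.5 ± 3.4 CPM in INPUT (SD, n = 4). The fitted difference was -0.62 ± 0.14 on the log2 scale (SE, limma adjusted p = 0.00467), and the within-pool differences ran from -0.71 to -0.41. With the block the 95% interval was -1.11 to -0.13. The other nuclear receptors of the family went up in TRAP. Nr4a2 was at 18.7 ± 3.7 CPM in TRAP and 6.9 ± 2.1 CPM in INPUT (SD, n = 4), a log2 difference of 1.49 ± 0.26 (SE, limma adjusted p = 0.00122, or 0.00231 with the block). Nr4a3 was at 15.2 ± 4.0 and 5.89 ± 2.30 CPM, a log2 difference of 1.45 ± 0.35 (SE, limma adjusted p = 0.00645, or 0.00865 with the block). Nr4a1 exceeded Nr4a2 in every INPUT library, at log2 ratios of Nr4a2 to Nr4a1 from -3.28 to -1.78. In TRAP that ratio ran from -0.60 to 0.24, and the ranges did not overlap. The ratio of Nr4a3 to Nr4a1 ran from -3.9 to -2.0 in INPUT and from -0.99 to -0.17 in TRAP. In the Egr family, Egr1 exceeded Egr2 by 5.15 on the log2 CPM scale in TRAP (4.84 to 5.68). In INPUT it did so by 4.90 (4.45 to 5.28), and these ranges overlapped. The pairs within the Fos, Jun, Nr4a and Egr families were set side by side after the values were seen and carry no test.

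Non-overlap between fractions was common in the whole table. Every TRAP library was above every INPUT library for 23.3% of all genes tested and below every INPUT library for 24.4%. Among the 10 members, Fos, Fosl2 and Jun were in the first class and Nr4a1 in the second.

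Arc, whose protein moves AMPA receptors off the synapse, was at 15.2, 20.2, 13.4 and 14.4 CPM in TRAP. In INPUT it was at 15.03, 10.6, 16.4 and 15.2 CPM. TRAP was clearly above INPUT in VP2.2 alone, by 0.93 on the log2 scale, and the other pools lay between -0.29 and 0.02. The fitted difference was 0.15 (95% interval -0.28 to 0.58, limma adjusted p = 0.556). Npas4, a factor induced by calcium entry in neurons, had the widest spread of the members in TRAP on the log2 scale. It was at 0.49, 1.46, 0.21 and 5.82 CPM in TRAP and at 1.43, 0.78, 1.64 and 0.74 CPM in INPUT. TRAP VP2.11 was the highest and TRAP VP2.6 the lowest of the 8 libraries. The smallest whole reads that give the ratio in VP2.6 were 3 in TRAP and 55 in INPUT. The fitted log2 difference was -0.17, with a 95% interval from -2.13 to 1.79 (limma adjusted p = 0.887), so a rise or a fall of Fos size lies within the interval. With array weights, which count libraries far from the fit for less, Npas4 was lower by a log2 difference of -1.54 (limma adjusted p = 0.0413), and with the weights and the block it missed the threshold at -1.30 (limma adjusted p = 0.196).

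Between genes, levels were compared as CPM per kb of merged exon. In TRAP the order was Egr1 (39.9 ± 5.4 CPM per kb), Fos (26.1 ± 7.6), Nr4a1 (6.39 ± 0.65), Arc (5.18 ± 0.99), Jun (4.33 ± 1.02), Fosl2 (1.91 ± 0.17), Junb (1.16 ± 0.80), Fosb (0.96 ± 0.24), Npas4 (0.48 ± 0.63) and Egr3 (0.34 ± 0.32), each as mean ± SD of 4 libraries. Egr1 above Fos, Fos above Nr4a1, Nr4a1 above Arc and Jun above Fosl2 held in 4 of 4 TRAP libraries. Arc and Jun, and the 4 neighbouring pairs from Fosl2 down, changed places in at least 1 TRAP library. In INPUT Nr4a1 (9.82 ± 0.98 CPM per kb) stood above Fos (8.80 ± 1.00), in 3 of 4 libraries. Egr1 led there at 38.9 ± 3.8 CPM per kb, followed by Nr4a1, Fos, Arc (4.68 ± 0.84), Jun (2.93 ± 0.16), Fosl2 (1.49 ± 0.20) and Fosb (0.94 ± 0.08). Fos above Arc, Arc above Jun, Jun above Fosl2 and Fosl2 above Fosb held in all 4 INPUT libraries. Junb, Npas4 and Egr3 came last at 0.85 ± 0.45, 0.28 ± 0.11 and 0.21 ± 0.06 CPM per kb, and none of these neighbours kept one order in all 4 libraries.

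**Figure D2:**
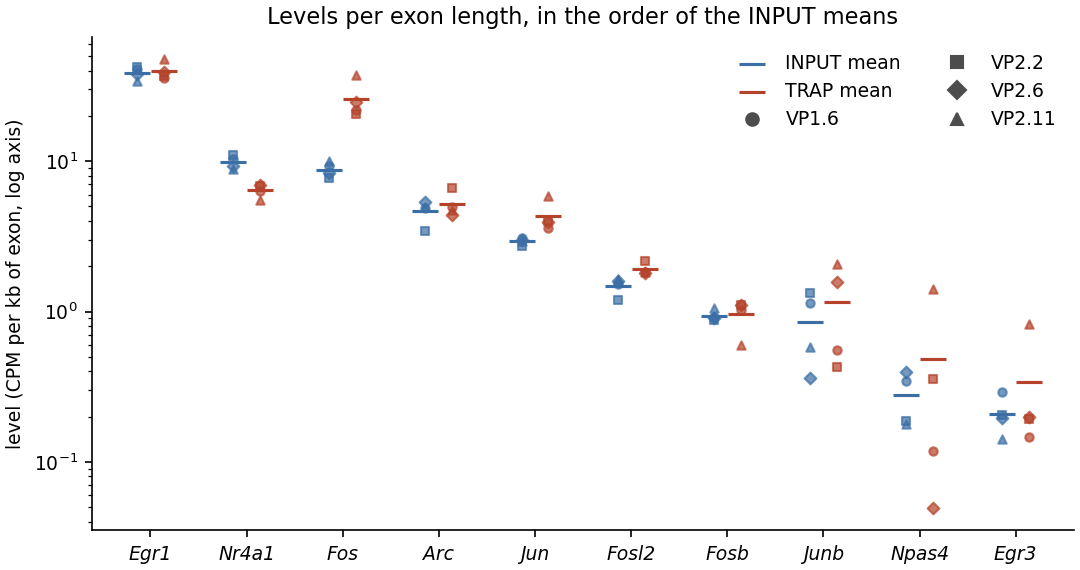
Level in CPM per kb of exon (vertical log axis) of the 10 members, ordered by their INPUT mean, with a marker per pool and a short line at the mean of 4 libraries, INPUT in blue and TRAP in red. Fos moves from 8.80 in INPUT to 26.1 in TRAP, while Egr1 stands at 38.9 and 39.9.

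The members did not form one group across pools. In TRAP, VP2.11 was the highest library for 6 of 10 members (Fos, Jun, Junb, Egr1, Egr3 and Npas4) and the lowest for 2 (Fosb and Nr4a1). Among all genes tested TRAP VP2.11 was the highest for 34.1% and the lowest for 31.2%. VP2.2 was the highest TRAP library for Arc and Fosl2, and VP2.6 for Fosb and Nr4a1. In INPUT, VP2.2 was the lowest library for 5 members (Fos, Fosb, Fosl2, Jun and Arc) and the highest for 3 (Junb, Egr1 and Nr4a1), beside 35.8% and 32.8% of all genes tested. The SD over TRAP libraries on the log2 scale was 2.08 for Npas4, 1.12 for Egr3 and 1.11 for Junb, beside a median of 0.32 over all genes tested. Genes of like level were more variable than that median, at 0.84, 0.77 and 0.61 for the levels of Npas4, Egr3 and Junb. The SD was 0.38 for Fos in TRAP against 0.22 for genes of like level, and 0.16 against 0.23 in INPUT. Nr4a1 and Fosl2 varied least in TRAP, with SD of 0.15 and 0.13.

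Covariation of the fractions across pools is limited by the deposited values themselves. Libraries of the same pool deviated from their fraction means in opposite directions, with a correlation across genes of -0.66 on average, and 63.5% of all genes had their highest TRAP library in the pool with their lowest INPUT library. For 5 members (Fosl2, Egr1, Egr3, Arc and Npas4) the pool highest in TRAP was the lowest in INPUT. Fos was the one member with the same pool, VP2.11, highest in both fractions, which held for 4.77% of all genes. Fos pool means ran from 4.9 to 5.5 on the log2 scale (SD 0.26), more than its half-differences varied (SD 0.14), and Nr4a1 pool means ran from 4.61 to 4.92 (SD 0.13 against 0.07). In the other 8 members pool means varied less than half-differences, for Arc with SD of 0.02 against 0.27, as for 90.4% of all genes.

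The genes most like Fos over the 8 libraries were Cspp1, Cc2d1a, Camkk2 and Sde2, with Pearson r from 0.997 to 0.998 on the log2 CPM scale. These r rest on the difference between the fractions, which 1698 genes shared closely enough for an r above 0.9, Jun among them (r = 0.935). Nr4a1 had an r of -0.966 with Fos. The genes most like Arc were Arhgap21, Arih1, Nebl and Ttll11 (r from 0.985 to 0.999), and 265 genes had an r above 0.9 with Arc. Arc and Fos had an r of 0.237. All of these r share libraries and scaling and are given as a description.

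Of 30 other immediate early genes 23 had a row. Without the block 7 rose, 4 fell and 12 did not pass, and with it 5 rose, 2 fell and 16 did not pass, at a median log2 difference of 0.22. The called share, 11 of 23 without the block and 7 of 23 with it, was near the 47.9% and 32.2% of all genes. Besides Nr4a2, Nr4a3 and Jund, 4 genes were called both with and without the block. Per1, a clock gene with CRE-driven induction, rose from 12.1 ± 1.9 to 24.2 ± 3.5 CPM (SD, n = 4), by 1.01 on the log2 scale (limma adjusted p = 0.00112, or 0.00808 with the block). Plk2, a kinase acting in synaptic scaling, rose by 0.82 (limma adjusted p = 0.0014, or 0.0109), and Ier5 by 0.86 (limma adjusted p = 0.0295, or 0.0487). Ppp1r15a, which encodes the stress-induced GADD34, fell by 0.96 (limma adjusted p = 0.017, or 0.0488), with 1 of 4 pools against that direction. The other genes lower without the block were Homer1 at -0.52 and Trib1 at -0.61 (limma adjusted p = 0.0698 and 0.248 with the block). Fosl1, Atf3, Ier2, Klf2, Klf4, Maff and Cyr61 had no row.

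**Figure D3:**
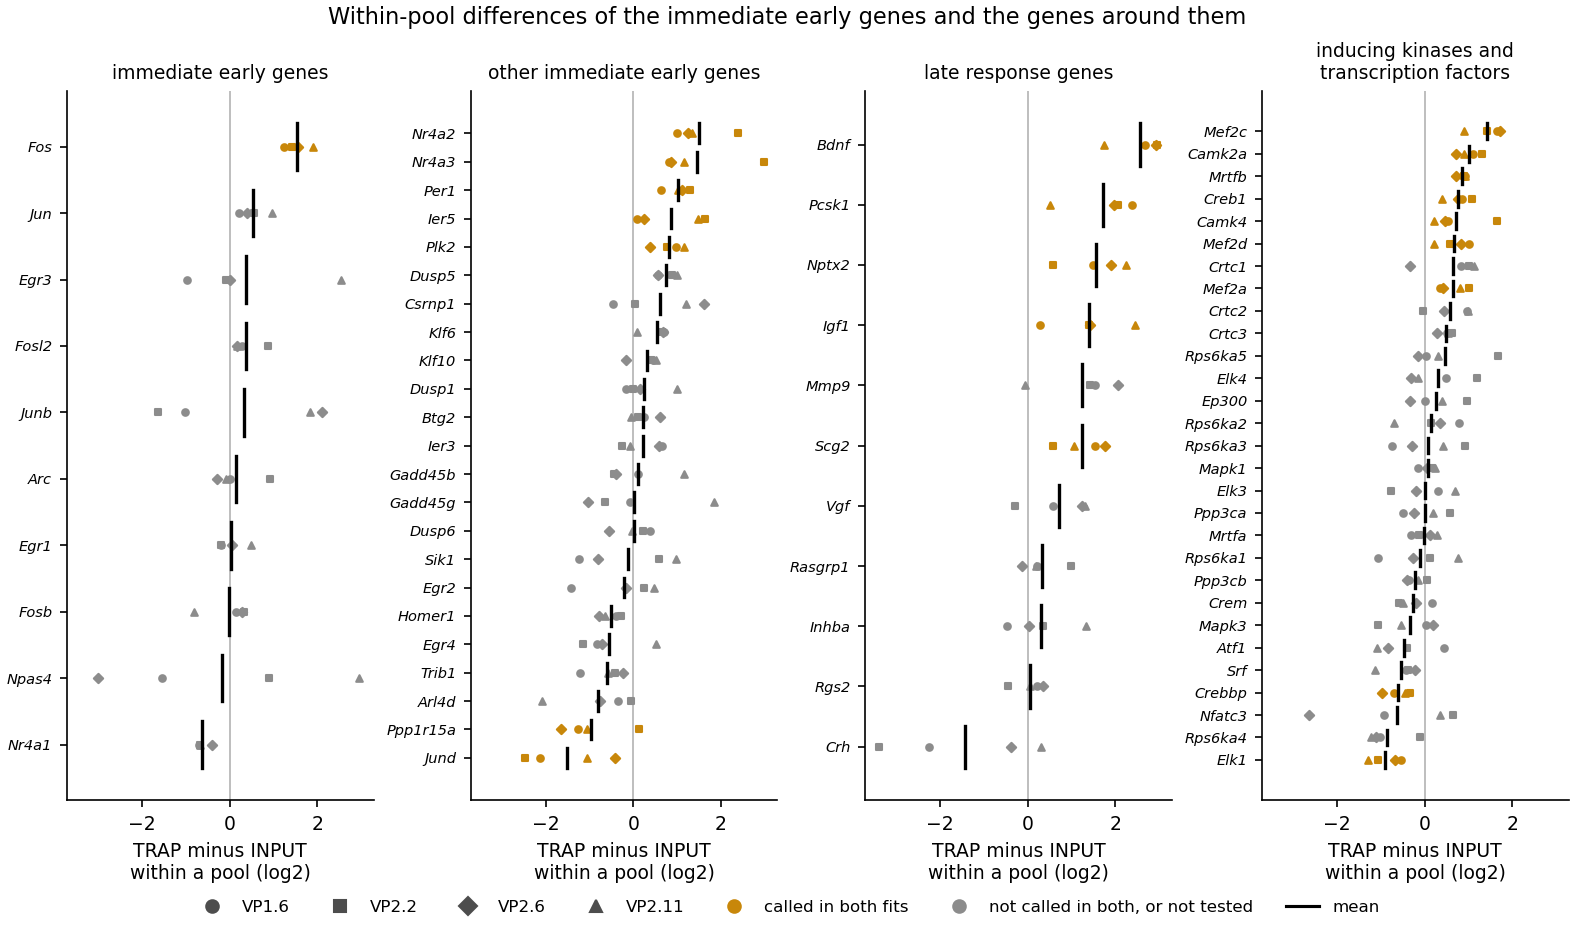
TRAP minus INPUT within each pool on the log2 scale (horizontal axis) for the members and the genes of 3 lists around them, with a marker per pool, a black bar at the mean, and orange for genes called both with and without the block. Fos, Nr4a2, Nr4a3 and Bdnf lie right of 0 in all 4 pools, while Egr1 and Arc straddle 0.

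Late response genes are the targets that follow the factors above. Of 12, 11 had a row (Cort had none), and 7 rose, 1 fell and 3 did not pass without the block, while 5 rose and 6 did not pass with it, beside 47.9% and 32.2% of all genes called. Their median log2 difference was 1.23. Bdnf, the neurotrophin whose promoters answer to CREB and NPAS4, was at 64.2, 52.9, 66.1 and 64.4 CPM in TRAP and at 10.1, 6.86, 8.70 and 19.2 CPM in INPUT. The fractions did not overlap, and Bdnf rose by 2.57 ± 0.27 on the log2 scale (SE, limma adjusted p = 0.000112, or 1.3e-05 with the block). Pcsk1, a prohormone convertase, rose by 1.73 (limma adjusted p = 0.000917), Nptx2, a pentraxin that gathers AMPA receptors, by 1.55 (limma adjusted p = 0.00244), and Scg2, a granin of dense-core vesicles, by 1.23 (limma adjusted p = 0.000567). Igf1 rose by 1.39 (limma adjusted p = 0.0064). The gene that fell without the block was Crh, at -1.44 (limma adjusted p = 0.0499, or 0.0912 with the block). Many of these genes also mark glutamatergic or peptidergic neurons at rest, and the part of cell type and of activity in their levels cannot be told apart here.

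The kinases and transcription factors that induce these genes moved in both directions. Of 31, 29 had a row, with 9 higher, 3 lower and 17 not passing without the block, and 7 higher, 2 lower and 20 not passing with it. Their median log2 difference was 0.08. The called share, 12 of 29 without the block and 9 of 29 with it, was not above the 47.9% and 32.2% of all genes. Mef2c, the most raised, went from 323.7 ± 58.3 to 863.5 ± 136.3 CPM (SD, n = 4), by 1.42 on the log2 scale (limma adjusted p = 0.000178, or 0.000539 with the block). Mef2a and Mef2d rose by 0.65 and 0.66 (limma adjusted p = 0.0044 and 0.00367). Camk2a, the alpha subunit of CaMKII, rose by 1.00 (limma adjusted p = 0.000523), Mrtfb, a coactivator of serum response factor, by 0.86 (limma adjusted p = 0.000409), and Creb1 by 0.77 (limma adjusted p = 0.00148). Elk1, a ternary complex factor, fell by 0.90 (limma adjusted p = 0.00314), and Crebbp, the coactivator of CREB, fell by 0.61 (limma adjusted p = 0.00356). The third lower gene, Rps6ka4, was at -0.87 and missed the threshold with the block (limma adjusted p = 0.0903). Srf itself was at 5.68 ± 1.39 CPM in TRAP and 8.05 ± 0.32 CPM in INPUT (SD, n = 4, limma adjusted p = 0.0677).

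Stress genes and markers of other cells were set beside Fos, since cells other than VP Glu neurons and tissue handling can also contribute Fos mRNA. Summed over the 10 stress response genes with a row, TRAP stood at 14320, 7596, 12553 and 8598 CPM, and INPUT at 2860, 3401, 2845 and 4257 CPM. Most of this sum was Hspa8, a constitutive chaperone, at 9326 ± 3106 CPM in TRAP and 2700 ± 651 CPM in INPUT (SD, n = 4). Of 9 stress genes tested 4 rose and 2 fell, and with the block 3 rose and 2 fell, beside 47.9% and 32.2% of all genes called. Hspa5, Hsph1 and Hspa8 rose by 1.75, 1.496 and 1.76 on the log2 scale (limma adjusted p = 0.000104, 0.000408 and 0.000648). Ddit3 and Gadd45a, which respond to endoplasmic reticulum stress and DNA damage, fell by 1.46 and 1.79 (limma adjusted p = 0.000171 and 0.0216). Gadd45a went against that direction in VP2.11, with 7.67 CPM in TRAP and 5.58 CPM in INPUT. Within TRAP the sum followed Hspa8 and was highest in VP1.6, where Fos was 51.3 CPM. Dnajb1, Gadd45a and Hsph1 were highest in TRAP VP2.11, as was Fos, at 79.3, 7.67 and 709.2 CPM. Hsph1 in TRAP VP2.2 was nearly the same at 708.7 CPM. These were 3 of the 10 stress genes, beside 34.1% of all genes tested, and the others were highest in another TRAP library. The part of stress genes in the Fos difference was not tested.

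The sum of the endothelial markers peaked in VP2.11 in TRAP, but not in INPUT. The 5 with a row (Flt1, Pecam1, Kdr, Ly6c1 and Slco1a4, while Cldn5 and Tek had none) summed to 32.0, 15.2, 19.0 and 83.1 CPM in TRAP, and to 7.97, 48.6, 17.2 and 12.0 CPM in INPUT. Within TRAP all 5 were highest in VP2.11, beside 34.1% of all genes tested. Fos and 5 other members were highest there too, as were 13 of the 23 other immediate early genes with a row. Over both fractions Ly6c1 was highest in INPUT VP2.2. The most abundant of the 5 in INPUT, Ly6c1, was at 10.3, 0.85, 4.19 and 21.4 CPM in TRAP and at 2.06, 35.9, 5.596 and 3.41 CPM in INPUT. Flt1 was higher in TRAP by 2.37 on the log2 scale (limma adjusted p = 0.00804, or 0.00466 with the block), in 4 of 4 pools. Slco1a4 was at 1.397 and passed with the block alone (limma adjusted p = 0.0511, or 0.0429 with the block). The high INPUT sum in VP2.2 was mostly Ly6c1. In that pool Flt1 and Kdr were higher in TRAP, by 1.08 and 1.21 on the log2 scale. Pecam1 and Slco1a4 were lower there, at -1.47 and -0.14. Over the 4 pools Pecam1 was at 0.59 and did not pass (limma adjusted p = 0.420). Of the 5 tested, 1 was called higher without the block and 2 with it, beside 23.2% and 15.4% of all genes. None was called lower. The part of the endothelial markers in the Fos difference was not tested. The microglial markers, which summed to 24.8, 34.1, 28.2 and 30.7 CPM in TRAP and to 153.4, 146.6, 125.4 and 98.2 CPM in INPUT, fell for 7 of 7 genes without the block and for 5 with it, beside 24.8% and 16.8% of all genes called lower. P2ry12 and C1qb fell by 2.41 and 3.01 on the log2 scale. Astrocyte markers were lower for 5 of 7 in both fits (S100b by a log2 difference of -3.00, Slc1a3 by -1.12), with Slc1a2 not past the threshold at 0.21, and Mbp, a myelin gene of oligodendrocytes, was lower by a log2 difference of -2.23. Mag, another myelin gene, was higher by 0.61 without the block alone (limma adjusted p = 0.0355, or 0.0719 with it).

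**Figure D4:**
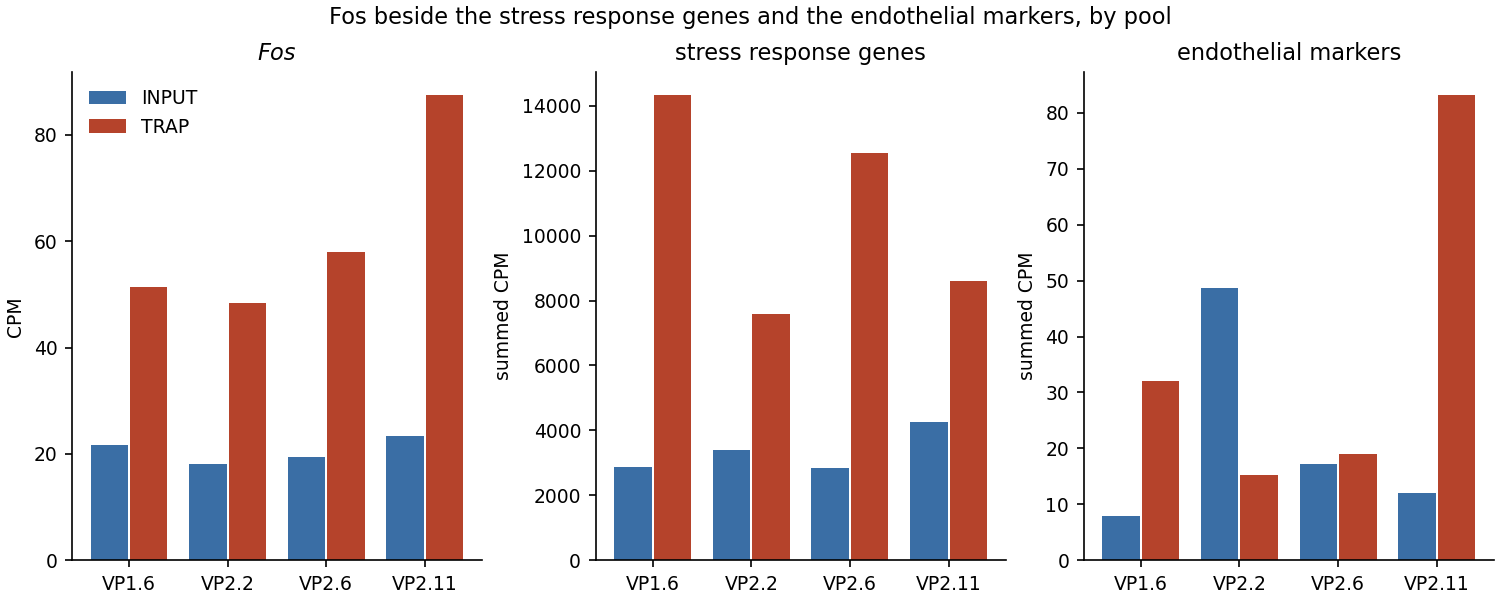
Fos level in CPM (left), summed CPM of the stress response genes (middle) and summed CPM of the endothelial markers (right) in each pool, as bars from 0 with INPUT in blue and TRAP in red, 1 library per bar. Fos is higher in TRAP in all 4 pools, the endothelial sum peaks at 83.1 in TRAP VP2.11, and the stress sum peaks at 14320 in TRAP VP1.6.

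Neuronal markers gave the setting of these values. Pan-neuronal genes were higher in TRAP for 6 of 7 and lower for 1 without the block, and higher for 5 with it, beside 23.2% and 15.4% of all genes called higher, with Snap25 up by 1.93 and Tubb3 up by 0.95 on the log2 scale and a list median of 0.95. Glutamatergic markers were higher for 6 of 7, with the block and without it. GABAergic markers were lower for 4 of 6 in both fits, beside 24.8% of all genes called lower without the block and 16.8% with it, with Gad2 and Gad1 not past the threshold at -0.05 and 0.30. Striatal projection neuron markers were lower for 7 of 9 in both fits, Penk by a log2 difference of -1.70 and Tac1 by -1.75. Of 3 cholinergic markers, Chat was higher at 0.70 without the block alone (limma adjusted p = 0.0344, or 0.0655 with it), Slc18a3 was lower at -1.75 in both fits (limma adjusted p = 0.0086, or 0.0131), and Slc5a7 at 0.81 did not pass. Of 5 pericyte and smooth muscle markers Acta2 and Tagln were lower, by log2 differences of -2.38 and -3.42, and the more abundant Vtn and Rgs5 did not pass at -0.39 and -0.26.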

How the data were processed

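The authors aligned reads with STAR 2.5.1a to Ensembl release 76, counted unique reads per gene with featureCounts and scaled them by TMM in edgeR. The values they deposited are log2 CPM per gene and library, with both VP2.11 libraries and the INPUT of VP1.6 cut to 3 significant digits. The table also holds the authors' own fold changes, p-values and transcript counts, which were not used. Of 14398 entries 45 repeats were left out.

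Members and gene lists were chosen with earlier results of these data known. A gene entered the tests when 3 or more libraries had it above 1 CPM (14249 genes), with limma 3.58.1 (lmFit, eBayes with a trend) in R 4.3.3, with the fraction alone and, beside it, with the pool as a block, with Benjamini-Hochberg adjustment. The 2 libraries of a pool come from the same homogenate, which pairs them, and their deviations from the fraction means correlated at -0.75 to -0.49 across genes. Opposed deviations lower the error of the fit without the block, so calls that pass both are the firmer ones. P-values rest on the spread between 4 pools, which limma moderates towards that of genes of like level. The fit without the block treats the 8 libraries as independent. For Nr4a1 the within-pool differences had an SD of 0.14, while the moderated SE with the block was 0.23. A missed threshold with the block thus need not mean that the pools disagreed.

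All members are named. From each list the genes called in both fits are named, at most 8 by adjusted p with the block, from cell type lists the 2 most abundant in INPUT, and the 4 genes with the highest r with Fos and with Arc. Other genes were named after their values were seen, and 1 item is not reported here. Mkl1 and Mkl2 were matched as Mrtfa and Mrtfb through RefSeq synonyms. Exon lengths came from GENCODE M21 (GRCm38). Library sizes came from odd-number ratios of TRAP to INPUT within a pool, which fitted 92.8% of 3437 low genes in VP2.2 and 99.2% of 3656 in VP2.6 within a relative error of 2e-07. Scripts for the fits and sizes were tested on simulated data. The alternatives tried were the block, array weights, no filter, log2(CPM + 1), equal library medians, an exon length trend taken out and each pool left out.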

Additional observations from a re-analysis of the deposited data

Results flagged for a closer look

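2 of the 20 sets of 4 libraries of a member in a fraction had a library far from the other 3, where chance would give about 1. Fosb in TRAP VP2.11 was low at 1.90 log2 CPM, while the other TRAP libraries lay between 2.69 and 2.79. Fosl2 in TRAP VP2.2 was high at 4.39 log2 CPM, while the others lay between 4.13 and 4.16. TRAP VP2.11 was also the highest library for 6 other members, so its low Fosb value went against Fos and Jun in the same library.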

How the results depend on the processing

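Fos passed the threshold under all 17 settings, with log2 differences from 1.41 to 1.71. The settings that turned or ended other results are grouped here, and the cause was not tested. The pool as a block lowered the calls from 6830 to 4592 genes, of the members from 3 to 1, of the other immediate early genes from 11 to 7 and of the late response genes from 8 to 5, and Jun (0.54) and Nr4a1 (-0.62) then missed the threshold. It changed no call of the other members tested. The block with the exon length trend taken out left 5 late response genes and 6 inducing genes, against 12 with neither, and lost Jun (0.60), and the block with array weights lost Jun at 0.43, while Nr4a1 passed in both of these fits, at -0.58 and -0.57 (limma adjusted p = 0.0415 and 0.0279). Across all genes tested the log2 difference in the main fit rose with exon length (Spearman rho of 0.41), so longer genes tended to stand higher in TRAP. Taking out the length trend, with the block or without it, turned Fosl2 to -0.0044 and Egr1 to -0.045. Array weights turned Fosb to 0.15, Egr1 to -0.0026 and Arc to -0.061 and called Npas4 at -1.54, and with the block they gave Fosb 0.092 and Arc -0.039. Equal library medians gave Fosb 0.024 and called Fosl2 at 0.40. Values as log2(CPM + 1) gave Npas4 0.15.

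Leaving out a pool, with the block (chosen after seeing the data) and without it, gave 3232 to 6894 called genes, 1 to 3 members, 4 to 9 other immediate early genes, 5 to 7 late response genes and 4 to 12 inducing genes. The log2 difference then ran from 1.41 to 1.63 for Fos, from -0.12 to 0.26 for Fosb, from 0.20 to 0.44 for Fosl2, from 0.39 to 0.64 for Jun, from -0.27 to 0.97 for Junb, from -0.12 to 0.11 for Egr1, from -0.12 to 0.29 for Arc, from -1.21 to 0.77 for Npas4 and from -0.69 to -0.59 for Nr4a1. Fosb, Egr1 and Junb turned without VP2.11, Junb also without VP2.6, Arc without VP2.2, and Npas4 without VP1.6 or VP2.6. With 4 pools, differences smaller than the intervals given could not be seen. The depth of VP1.6 and VP2.11 is unknown.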
